A study of Paralichthys olivaceus with 6 samples.

Results

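In the ovaries of double haploid Japanese flounder (Paralichthys olivaceus), fertile and sterile females differed in the levels of assembled transcript sequences (unigenes) that carry 7 gene names. These are *kif3b*, *cox4i2*, *bcl2l1*, *arfgef2*, *slc35c2*, *rhbdd1* and si:ch211-148l7.4, called the 7 genes here. For each gene, at least 1 unigene was higher in the fertile fish and at least 1 other unigene with the same gene name was higher in the sterile fish. They were taken from the study's list of 1225 differentially expressed unigenes with 446 named symbols, of which 17 symbols had unigenes of both directions. All listed unigenes of the 7 names were used, which gave 20 of the 52474 unigenes in the count table. The list was made by the study from the same fertile and sterile counts that are described here, so the members were chosen by the fertile and sterile counts themselves, and these differences are given as a description, with no test.

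The fish were females aged 5 years. A double haploid is made from an egg whose single chromosome set is doubled, so that in principle both copies of each chromosome are identical. All were produced from 1 wild female. The 3 fertile fish (libraries F1, F2 and F3) had ovaries labelled stage V, and the 3 sterile fish (libraries S1, S4 and S5) had gonads labelled stage III, so fertility and ovarian stage cannot be told apart. Each group is therefore a set of sisters of 1 family, with 1 library per fish, although the methods also speak of pooled RNA. The numbers of libraries S4 and S5 match no sample number, and these libraries were placed in the sterile group by the letter of their column names. Their column names also have another ending than those of the other 4.

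A *de novo* assembly joins reads into transcripts without a genome. Forms of 1 gene that differ enough in sequence, such as splice forms, gene copies or alleles, can end up as separate unigenes with the same name. The 7 genes have unlike tasks in the cell. *kif3b* encodes a motor subunit of kinesin-2, which carries cargo along microtubules and builds cilia. *bcl2l1* encodes Bcl-xL, which holds back mitochondrial cell death and is known from mammals for the survival of germ cells. *cox4i2* encodes an isoform of subunit 4 of cytochrome c oxidase, the last enzyme of the respiratory chain. *arfgef2* encodes BIG2, which loads ARF proteins with GTP for vesicle traffic at the trans-Golgi network. *slc35c2* belongs to the family of nucleotide sugar transporters of the Golgi, and *rhbdd1* encodes a rhomboid protease that cuts proteins inside the membrane. No role is given here to si:ch211-148l7.4, whose name comes from a zebrafish clone.

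Total counts ranged from 25024469 to 35719683 per library, and levels are given as CPM (counts divided by library size and put on a common scale) adjusted with the trimmed mean of M-values (TMM). Across all unigenes, 49 of 35787 tested differed between the groups (0.137%) by more than 2-fold in edgeR's quasi-likelihood test, with Benjamini-Hochberg adjusted *p* below 0.05. All 20 unigenes passed the filter on low counts and 6 of them were among the 49 (background 0.137%). The groups did not overlap in any of the 20 (background 21.9%, 7846 of 35787). The rule used this contrast, and nothing is read from either count. The counts also moved with single libraries: without F1, 97 unigenes were called, and without S5, 89 were called, 19 of them members, while without F2, S1 or S4 only 3 members were called. Library S5 had the lowest TMM factor, 0.913. Summed levels of the 17 listed leukocyte unigenes ran from 56.9 to 74.2 CPM in the fertile fish and from 95.8 to 191.4 in the sterile fish, where S5 was the highest. Contig25050 and Contig25051, both named *cd74a*, made up most of these sums, at 22.3 and 21.8 CPM in F1 and 79.9 and 80.7 CPM in S5. The *mpx* unigenes c11063_g3_i1_1584_2137 and c7305_g1_i1_1592_9835 were higher in fertile fish (log2 fold change 2.70 and 2.76, not called). Of the 13 leukocyte unigenes tested, 1 was called, higher in fertile fish (c18659_g8_i1_2415_8297, named *mpx* in the list and thyroid peroxidase in the study's pathway table). All tested leukocyte unigenes not named *mpx* had negative log2 fold changes. The median was −1.31 (−0.01 over all unigenes tested), and 2 of the 17 were at 0 in every fertile fish. The 4 exocrine pancreas unigenes summed to 0.644 to 1.71 CPM in the fertile fish and to 2.93, 8.84 and 12.8 CPM in S1, S4 and S5, with 0 of 3 called and a median of −2.63. The 9 follicle cell unigenes summed to between 19.1 and 36.9 CPM in the fertile fish and to between 6.83 and 12.9 CPM in the sterile fish, with 2 of 6 called, both higher in fertile fish, and a median of 2.55. The 2 unigenes of meiotic germ cells summed to between 0.237 and 1.08 CPM in the 6 libraries, with 0 of 2 called and a median of 1.71. The study chose all these markers on the same fish, so they are not independent evidence of direction. In bulk tissue, fewer cells of a type and less RNA per cell cannot be told apart. The part of cell composition in the results below was not tested.

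**Figure D1:**
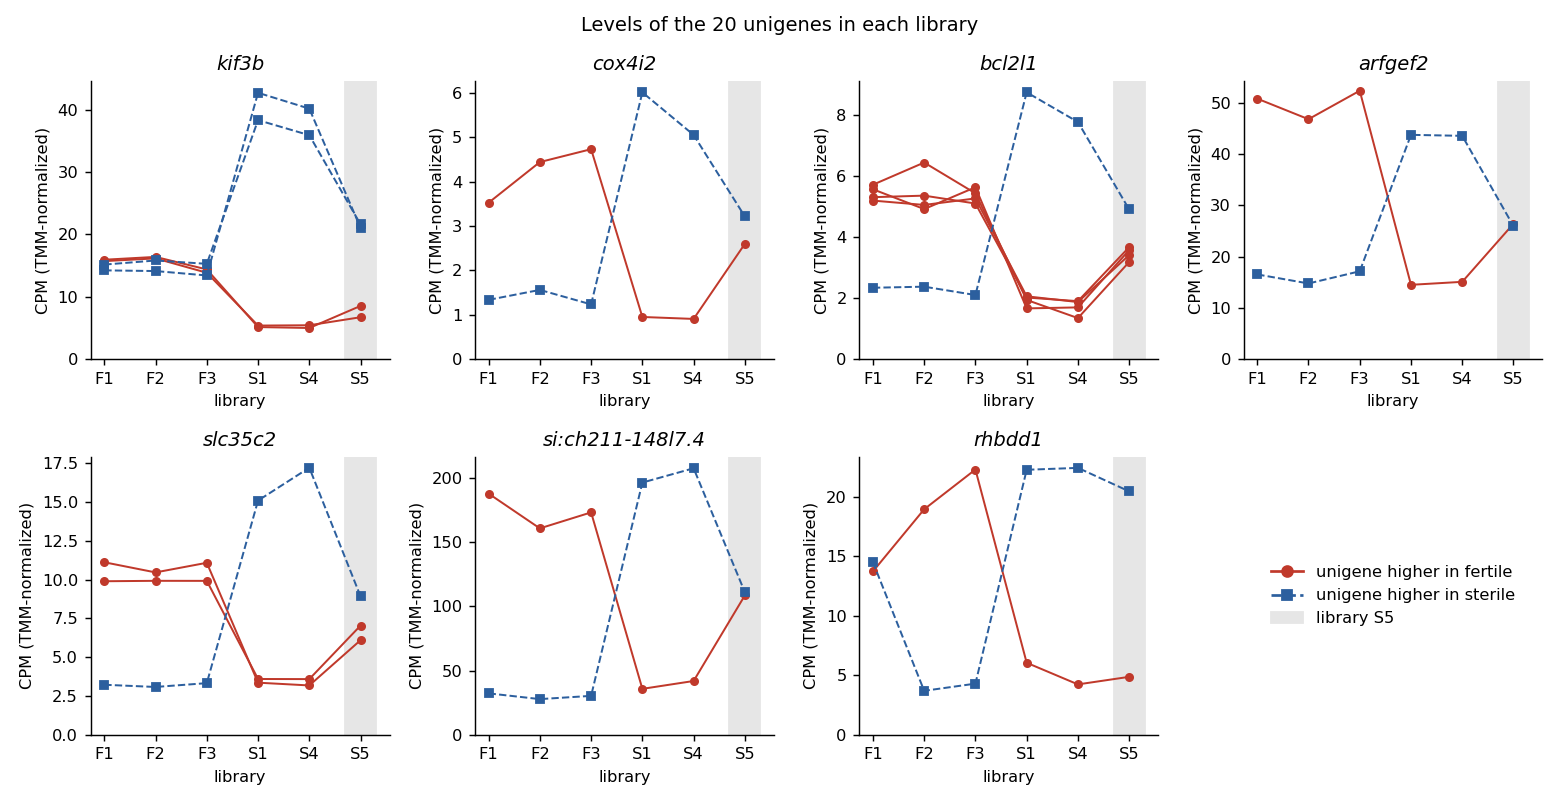
Level of each of the 20 unigenes (CPM, TMM-normalized, vertical axis from 0) in the 6 libraries, 1 panel per gene. Red circles are unigenes higher in fertile fish, blue squares those higher in sterile fish, and grey shading marks library S5. In 6 panels the S5 values lie between those of the other sterile libraries and those of the fertile libraries, and in *rhbdd1* F1 is the library that stands between.

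The clearest swap was in si:ch211-148l7.4, the most abundant of the 7. Contig139 stood at 187.8, 160.7 and 173.2 CPM in F1, F2 and F3 and at 35.8, 41.9 and 108.5 CPM in S1, S4 and S5 (log2 fold change, fertile over sterile, 1.49, and 2.17 without S5). Contig16963 did the opposite, with 32.3, 27.8 and 30.3 CPM in the fertile libraries and 196.4, 207.5 and 111.0 CPM in S1, S4 and S5 (log2 fold change −2.51). In S5 the 2 unigenes were nearly level, at 3345 and 3421 counts. Added together they gave 220.1, 188.5 and 203.5 CPM in the fertile libraries and 232.2, 249.4 and 219.5 CPM in S1, S4 and S5. The sum overlapped between the groups (204.0 ± 15.8 against 233.7 ± 14.99 CPM, SD, n = 3, log2 fold change −0.20), and its highest library was 1.32 times its lowest, against 5.25 and 7.47 times for its unigenes.

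In *arfgef2*, Contig6931 was measured at 50.9, 46.9 and 52.4 CPM in the fertile libraries and at 14.5, 15.1 and 26.4 CPM in S1, S4 and S5 (log2 fold change 1.42). Contig15739 was measured at 16.5, 14.8 and 17.1 CPM in the fertile libraries and at 43.8, 43.6 and 26.0 CPM in S1, S4 and S5 (log2 fold change −1.23). S5 again held the 2 unigenes at nearly the same level, with 815 and 800 counts. The summed level was 66.2 ± 4.10 CPM for F1, F2 and F3 and 56.5 ± 3.53 CPM for S1, S4 and S5 (SD, n = 3, log2 fold change 0.23), and here the groups did not overlap. Every unigene of the gene differed by at least 1.23 on the log2 scale, several times the difference of the sum, but unigenes of large and opposite difference were what the choice of the genes asked for.

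*cox4i2* was the least abundant of the 7. Contig1345 had 95, 131 and 142 counts in F1, F2 and F3 and 24, 31 and 80 counts in S1, S4 and S5 (4.23 ± 0.630 against 1.48 ± 0.964 CPM, SD, n = 3, log2 fold change 1.51). c13491_g1_i1_919_19182 had 36, 46 and 37 counts in the fertile libraries and 152, 173 and 99 counts in S1, S4 and S5 (1.38 ± 0.167 against 4.76 ± 1.42 CPM, log2 fold change −1.78). The 2 unigenes differed in opposite directions, and S5 stood between the groups in both. Their sum overlapped between the groups, from 4.857 to 5.997 CPM in F1 to F3 and from 5.81 to 6.96 CPM in S1, S4 and S5 (log2 fold change −0.15). Without S5, the log2 fold change of Contig1345 was 2.196.

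*slc35c2* had 3 unigenes. Contig27480 stood at 3.23, 3.08 and 3.33 CPM in the fertile libraries and at 15.1, 17.2 and 8.92 CPM in S1, S4 and S5 (log2 fold change −2.10). c6637_g1_i2_2525_9690 and c6637_g1_i1_2351_9689, which come from the same Trinity component, both lay between 9.90 and 11.1 CPM in the fertile libraries. The former had 3.36, 3.18 and 6.10 CPM in S1, S4 and S5 (log2 fold change 1.37) and the latter 3.60, 3.59 and 7.04 CPM (log2 fold change 1.06). S5 was again the sterile library nearest to the fertile ones in all 3. The sum of the 3 was 24.2, 23.5 and 24.3 CPM in the fertile libraries and 22.1, 23.99 and 22.1 CPM in the sterile libraries. The highest library was 1.104 times the lowest (log2 fold change 0.08), the smallest such ratio among the 7 sums of listed unigenes. This depends on the unigenes added: with the most counted unigene of each direction the log2 fold change was −0.35, and with an unnamed row that lies between the members in the count table the highest library was 1.48 times the lowest.

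*bcl2l1* differed from these in the balance of its unigenes, with 4 that were higher in fertile fish and 1 that was higher in sterile fish. The former (Contig7742, c14967_g1_i5_2274_12000, c13605_g1_i1_2258_2619 and c17608_g2_i1_2346_7912) lay between 4.91 and 6.44 CPM in the fertile libraries, between 1.34 and 2.06 CPM in S1 and S4 and between 3.18 and 3.67 CPM in S5. Their log2 fold changes ran from 1.05 to 1.45. The opposed unigene, c13022_g2_i2_1892_15085, had 2.34, 2.37 and 2.10 CPM in the fertile libraries and 8.74, 7.76 and 4.90 CPM in S1, S4 and S5 (log2 fold change −1.65). All 5 placed S5 between the groups. With 4 unigenes against 1, the sum was higher in fertile fish, at 23.9 ± 0.347 against 16.6 ± 2.08 CPM (SD, n = 3, log2 fold change 0.53), without overlap. If the most counted unigene of each direction alone was added, the difference turned to −0.19.

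*kif3b* was the gene whose unigenes placed S5 most unequally. Contig22415 had 14.2, 14.1 and 13.4 CPM in the fertile libraries, 42.7 and 40.2 CPM in S1 and S4 and 21.1 CPM in S5 (log2 fold change −1.31). Contig3256 had 15.2, 15.8 and 15.3 CPM in the fertile libraries, 38.3 and 35.9 CPM in S1 and S4 and 21.6 CPM in S5 (log2 fold change −1.05). In both, S5 was nearer to the fertile level than to S1 and S4. In c18675_g3_i4_5615_8309 it stayed near the other sterile fish, with 15.7, 16.2 and 13.9 CPM in the fertile libraries and 5.38, 5.43 and 6.72 CPM in S1, S4 and S5 (log2 fold change 1.38). c17438_g3_i2_5390_3535 had 15.9, 16.4 and 14.4 CPM in the fertile libraries and 5.14, 4.99 and 8.53 CPM in S1, S4 and S5 (log2 fold change 1.32). The sum of the 4 was therefore high in S1 and S4, at 91.6 and 86.5 CPM, while S5 at 57.9 CPM lay among the fertile libraries at 56.9 to 62.5 CPM. The log2 fold change of the sum was −0.39 with S5 and −0.56 without it.

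*rhbdd1* was the exception. c18547_g6_i3_2396_12899 had 13.7, 18.9 and 22.3 CPM in F1, F2 and F3 and 6.05, 4.23 and 4.87 CPM in S1, S4 and S5 (log2 fold change 1.87). Contig21658 had 14.5 CPM in F1 but 3.69 and 4.30 CPM in F2 and F3, against 22.3, 22.4 and 20.4 CPM in S1, S4 and S5 (log2 fold change −1.54, and −2.44 without F1). S5 behaved here like the other sterile fish, and F1 was the library apart from its group. Together they gave 28.2, 22.6 and 26.6 CPM in the fertile and 28.3, 26.6 and 25.3 CPM in the sterile libraries. The sums overlapped (log2 fold change −0.05).

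To compare the genes on 1 scale, the share of a gene's counts that fell in its fertile-high unigenes was taken in each library, with exact Clopper-Pearson 95% intervals that cover counting error only. The share of si:ch211-148l7.4 was 85.3, 85.3 and 85.1% in the fertile libraries, 15.4 and 16.8% in S1 and S4 and 49.4% (48.2 to 50.6%) in S5. That of *arfgef2* was 75.5, 76.0 and 75.3% in the fertile libraries, 24.9 and 25.7% in S1 and S4 and 50.5% (48.0 to 52.9%) in S5. In both, S5 was at the middle of the 2 levels.

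The share of *slc35c2* was 86.7, 86.9 and 86.3% in the fertile libraries, 31.5 and 28.2% in S1 and S4 and 59.6% (55.8 to 63.3%) in S5. The share of *cox4i2* was 72.5, 74.0 and 79.3% in the fertile libraries, 13.6 and 15.2% in S1 and S4 and 44.7% (37.3 to 52.3%) in S5. The wide interval of *cox4i2* follows its 179 counts in S5. For *bcl2l1* the shares were 90.3, 90.2 and 91.1% in the fertile libraries, 46.7 and 46.7% in S1 and S4 and 73.8% (70.0 to 77.4%) in S5. For *kif3b* they were 51.9, 52.1 and 49.6% in the fertile libraries, 11.48 and 12.04% in S1 and S4 and 26.3% (24.3 to 28.4%) in S5. In these 6 genes the interval of S5 was apart from the intervals of all 5 other libraries, and no other library had such an interval in any of them.

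**Figure D2:**
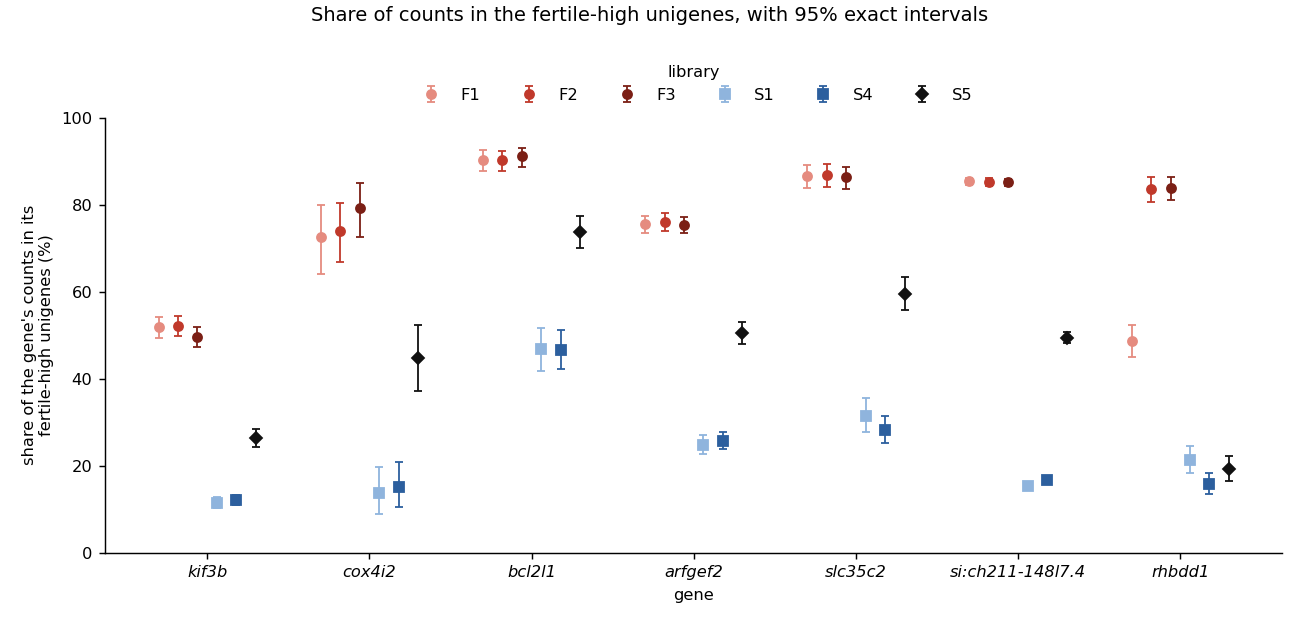
Share of each gene's counts that fell in its fertile-high unigenes (%, vertical axis from 0 to 100) for the 7 genes, 1 point per library with its exact 95% interval. Red circles are fertile libraries, blue squares S1 and S4, and black diamonds S5, which sits apart from both sets in 6 genes. In *rhbdd1*, S5 is at 19.2% with the sterile libraries and F1 at 48.6% is the library between.

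The place of S5 was put on a scale from 0, the mean share of S1 and S4, to 1, the mean share of the fertile libraries. S5 stood at 0.482 in si:ch211-148l7.4, 0.497 in *cox4i2*, 0.5002 in *arfgef2* and 0.523 in *slc35c2*. It stood at 0.619 in *bcl2l1* and at 0.370 in *kif3b*. S5 was thus intermediate in 6 of the 7 genes, but the order among the 6 rests on which unigenes are added. The place on the share scale depends on both the number and the levels of the unigenes added in each direction. With the most counted unigene of each direction alone, the share of *bcl2l1* was 39.4% in S5, 18.1 and 14.7% in S1 and S4 and 71.0 to 73.1% in fertile fish. That of *kif3b* was then 28.8% in S5, 10.73 and 11.05% in S1 and S4 and 51.7 to 53.7% in fertile fish. That of *slc35c2* was 40.6% in S5, 18.2 and 15.6% in S1 and S4 and 76.9 to 77.5% in fertile fish. These pairs put S5 at 0.412 in *bcl2l1*, 0.429 in *kif3b* and 0.393 in *slc35c2*, below the genes with a single pair, which kept their places from 0.482 to 0.5002.

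Unigene by unigene, with the same scale on CPM, S5 lay between the groups in 19 of the 20, where 40.0% (168 of 420) of all unigenes that separated S1 and S4 from the fertile libraries by more than 2-fold, without overlap and at a mean of at least 1 CPM, had S5 between. The 7 genes had been picked with this place of S5 known, so the count is no result about them. The 11 fertile-high unigenes outside *rhbdd1* ran from 0.13 to 0.55 with a median of 0.45, and the 7 sterile-high ones from 0.53 to 0.74 with a median of 0.56. The exception was the fertile-high unigene of *rhbdd1*, at −0.02. Computed in the same way for the other sterile libraries, S1 lay between in 1 of 16 unigenes (35.4% of 505 in the table) and S4 in 0 of 16 (32.1% of 499), 16 being the members past the same limits. F1 lay between in 6 of 20 (42.1% of 541), F2 in 8 of 20 (16.1% of 380) and F3 in 6 of 20 (40.2% of 587). The intermediate place was not particular to S5 over the whole table, where F1 and F3 had as large a share of such unigenes. In the 6 genes it was S5 alone that left its group by a large part of the scale, since the places of F1, F2 and F3 ran from −0.12 to 0.08, where 0 is the level of the rest of a library's own group. Those of S1 and S4 ran from −0.45 to −0.21, away from the fertile fish, their own group being taken with S5 in it.

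In *rhbdd1*, the share was 48.6% (45.0 to 52.2%) in F1, 83.7 and 83.8% in F2 and F3, and 21.4, 15.9 and 19.2% in S1, S4 and S5. F1 stood at 0.541 of the way from F2 and F3 to the sterile libraries and S5 at 0.011 of the way from S1 and S4 to the fertile ones. The pattern in *rhbdd1* was thus like that of the other 6 in form, with an intermediate share in 1 fish, but that fish was another and of the other group. Whether the opposed unigenes are alleles, gene copies or transcript forms was not tested, since no genotypes or reads were analysed here.

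The study's list held 10 other symbols with opposed unigenes, and in none of them did S5 take the place it had in the 6 genes. The 7 genes had been picked with the place of S5 known, so this contrast with the other symbols is no result. On the share scale S5 ran from 0.37 to 0.62 in the 6 genes and from −0.56 to 0.02 in 9 of the 10 symbols. In the tenth, COX1, it stood at 0.14, on a scale with almost no span, as the share was 99.9 to 100% in every library. The 5 symbols with the share profile nearest to the median profile of the 7 genes, by mean absolute difference over the 6 libraries, were LOC100536352 (10.3 percentage points), *vezf1b* (10.7), *pld3* (11.7), LOC100003937 (14.6) and *fam129bb* (18.8). LOC100536352 had the profile of *rhbdd1*, with 54.3% in F1, 89.0 and 87.8% in F2 and F3 and 21.2, 20.5 and 22.1% in the sterile libraries. *vezf1b* and *pld3* separated the groups with no library between. *vezf1b* had 75.4 to 81.1% in fertile and 34.9 to 37.2% in sterile fish, and *pld3* had 87.4 to 90.3% in fertile and 32.0 to 35.6% in sterile fish. In *fam129bb* F3 and S4 met, at 53.7 and 54.6%, while F1 and F2 were at 86.3 and 86.9% and S1 and S5 at 20.1 and 19.9%. Different fish were thus intermediate for different symbols. Likeness of profile over 6 libraries is a description only.

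**Figure D3:**
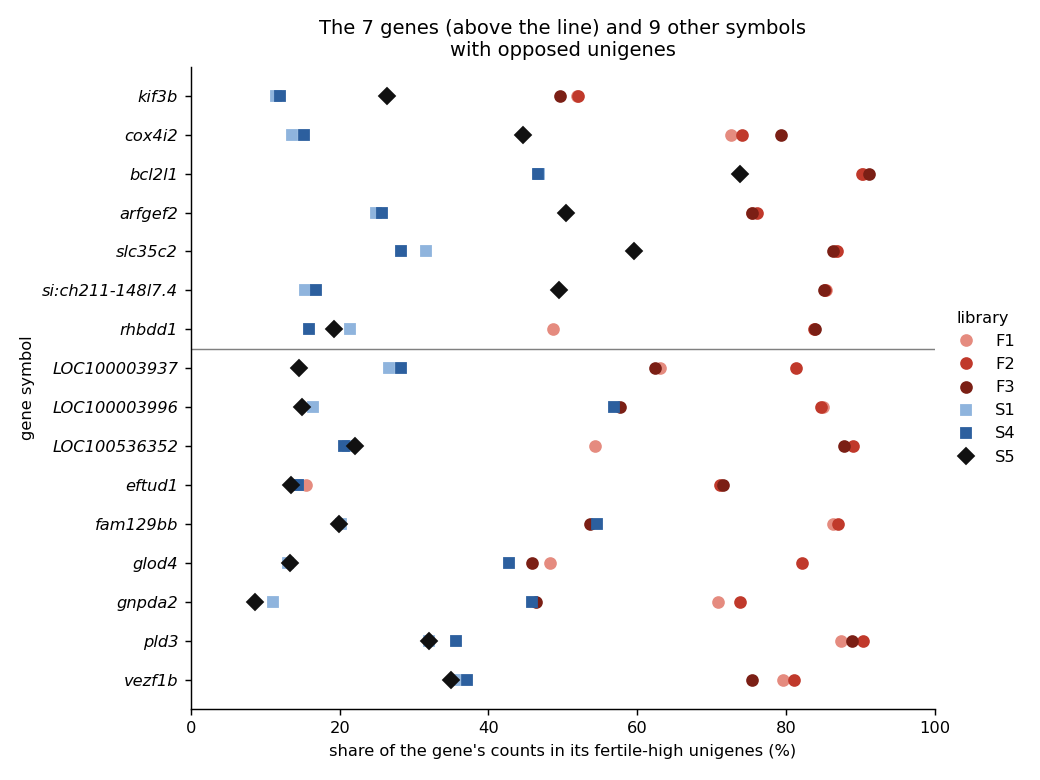
Share of counts in the fertile-high unigenes (%, horizontal axis) for the 7 genes above the line and 9 of the 10 other symbols with opposed unigenes below it, 1 point per library. COX1, at 99.9 to 100% in every library, is not drawn. The black diamond of S5 stands between the groups in 6 of the 7 genes and near or below the lower of S1 and S4 in the symbols below the line.

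The places of the genes were looked up by symbol in the Japanese flounder gene table of RefSeq (assembly ASM2471397v2, 30478 entries), which is not the sequence the unigenes were built on and was used only for which genes neighbour each other. Of the 7 symbols, 6 were found. Of these, 5 lay on 1 chromosome, in the order *kif3b*, *cox4i2*, *bcl2l1*, *arfgef2*, *slc35c2*, with 19 entries between the first pair, 0 between *cox4i2* and *bcl2l1*, 0 between *bcl2l1* and *arfgef2* and 5 between *arfgef2* and *slc35c2*. *rhbdd1*, the gene in which S5 was not intermediate, lay on another chromosome, with 6 entries between it and *pld3*. si:ch211-148l7.4 was not matched. Of the 10 other symbols with opposed unigenes 3 were matched, namely COX1, *glod4* and *pld3*. COX1 is mitochondrially encoded, and 0 of the 3 lay on the chromosome of *kif3b*, which holds 4.63% of the table. With so few matched, nothing is read from this 0. Of the symbols on the study's list, 208 were matched in all and 21 lay on the chromosome of *kif3b*, the 5 genes among them. Those 5 genes singled out this chromosome, so nothing is read from the 21 beside the 4.63% of all entries.

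From *kif3b* to *slc35c2* the table has 29 entries, of which 7 (24.1%) carried a symbol of the study's list, against 208 of all 30478 entries (0.682%). The ends of this stretch were set by the 5 genes themselves, so those 5 are in it by construction. The remaining 2 were *dpm1* and *gata5*, named here after their values were seen, as are the next genes. *dpm1*, a subunit of the enzyme that makes dolichol phosphate mannose, stood at 10.53, 10.64 and 11.36 CPM in the fertile libraries and at 38.54, 33.74 and 24.04 CPM in S1, S4 and S5, which put S5 at 0.478. *gata5*, a transcription factor gene, lay between 0.300 and 1.17 CPM and had its highest value in S5. *taf13*, a subunit gene of the general transcription factor TFIID and the next entry after *slc35c2*, put S5 at 0.245, and *flna*, the gene of filamin A, a crosslinker of actin, which lies 25 entries before *kif3b*, put it at 0.453. All 4 had a single listed unigene, higher in sterile fish. *crebzf*, between *flna* and *kif3b*, had Contig14718 and Contig18003 on the list, both higher in sterile fish, which put S5 at 0.323 and 0.583. The listed unigenes from *flna* to *taf13* thus had S5 between the groups, with that of *gata5* as the exception. Over the whole table, S5 lay between in 40.0% (168 of 420) of the unigenes past the limits given above. The same contrast chose them all.

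**Figure D4:**
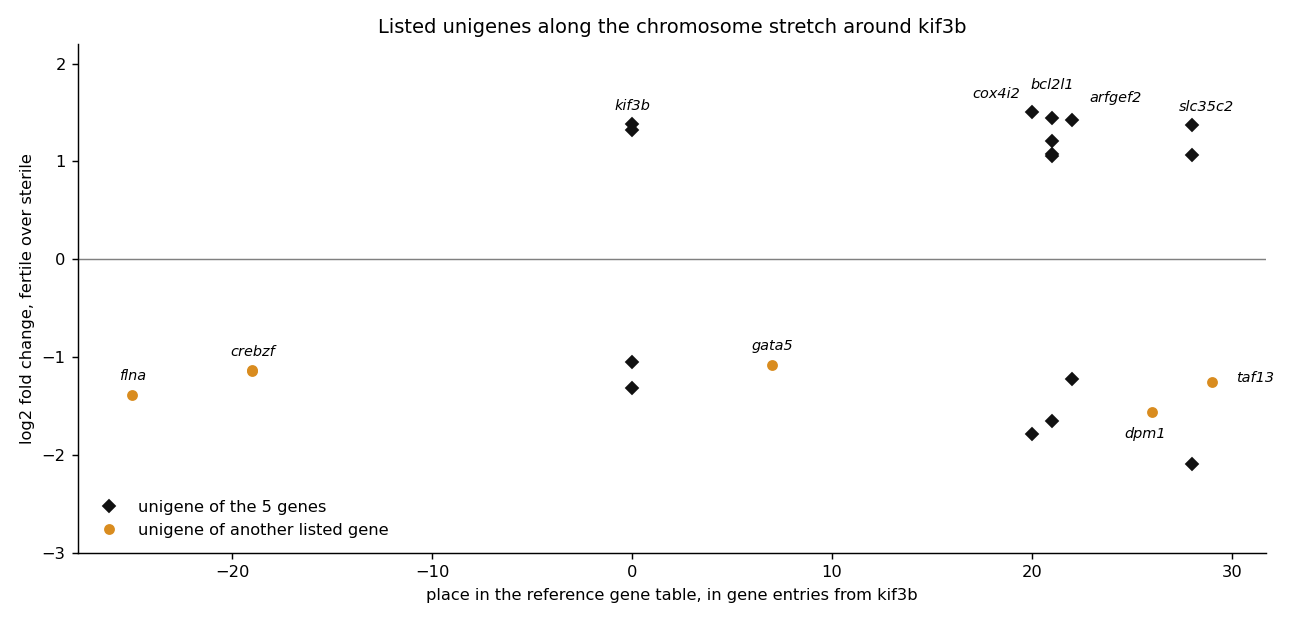
Log2 fold change (fertile over sterile, vertical axis) of the listed unigenes against the place of their gene in the reference table, in entries from *kif3b* (horizontal axis). Black diamonds are unigenes of the 5 genes on this chromosome and orange circles those of other listed genes. The 5 genes have unigenes on both sides of 0, and *flna*, *crebzf*, *gata5*, *dpm1* and *taf13* only below it.

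The sums rest on which unigenes are counted as a gene. In the count table the unigenes of 1 name lie close together, within 50 rows for all 113 symbols of the study's list that have 2 or more unigenes. Between the rows of the 7 genes lay 11 further unigenes, 8 in *kif3b*, 2 in *bcl2l1* and 1 in *slc35c2*, which are not on the study's list and carry no gene name here. The 8 rows in *kif3b* all had positive log2 fold changes, from 0.19 to 0.77. With them, the *kif3b* sum was 168.1, 173.6 and 163.5 CPM in the fertile libraries and 167.5, 158.7 and 131.9 CPM in S1, S4 and S5, and its log2 fold change turned from −0.39 to 0.14. The *bcl2l1* sum with its 2 further rows was 41.6 ± 0.246 against 37.9 ± 2.59 CPM (SD, n = 3), and its log2 fold change went from 0.53 to 0.13. In *slc35c2* the log2 fold change went from 0.08 to 0.34, and the groups, which overlapped in the sum of the listed unigenes, no longer did (58.5 ± 3.73 against 46.3 ± 6.36 CPM, SD, n = 3).

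Among the 11, Contig11589, beside *bcl2l1*, stood at 3.04, 2.98 and 3.03 CPM in the fertile libraries and at 6.96, 5.90 and 4.48 CPM in S1, S4 and S5 (log2 fold change −0.93). c13924_g3_i1_3153_2672, beside *slc35c2*, stood at 32.1, 39.4 and 32.1 CPM in the fertile libraries and at 20.8, 18.4 and 31.5 CPM in S1, S4 and S5 (log2 fold change 0.55). In both, S5 was the sterile library nearest to the fertile ones, and both were picked out after their values were seen. On the CPM scale S5 stood at 0.57 in Contig11589 and at 0.80 in c13924_g3_i1_3153_2672, and lower in the other 9. In 7 of the 8 rows in *kif3b* S5 stood from −0.13 to 0.20, near S1 and S4. Among these 7, S5 was still slightly the highest sterile library in Contig3257, c18475_g1_i1_5629_12861, Contig8583 and c18475_g1_i2_5900_12862. In the eighth, Contig13064, and in Contig13580 beside *bcl2l1* the groups overlapped, and S5 was the lowest of the 6 libraries in the former (7.56 CPM) and close to S1 in the latter (16.1 against 16.2 CPM). Neither Contig11589 nor c13924_g3_i1_3153_2672 passed edgeR's quasi-likelihood test over all unigenes, with Benjamini-Hochberg adjusted *p* = 0.104 and 0.239.

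Of the 8 rows in *kif3b*, 1 shares a Trinity component with a member. Unigenes of a shared component were set to be tested, but this is no independent test of the gene, since the member was chosen for its difference between the same groups and reads may be shared within a component. It was the only 1 of the 8 with an adjusted *p* under 0.05, but others were close. In the same quasi-likelihood test of edgeR, Contig13063 (log2 fold change 0.77), Contig3257 (0.57) and c18475_g1_i1_5629_12861 (0.64) had adjusted *p* = 0.0502, 0.0506 and 0.0520. c18675_g3_i1_4546_8307, of the component of c18675_g3_i4_5615_8309, had 261, 293 and 307 counts in F1, F2 and F3 and 155, 199 and 179 counts in S1, S4 and S5. Its mean levels were 9.94 ± 0.273 CPM (fertile) and 5.91 ± 0.184 CPM (sterile, SD, n = 3 in each), without overlap, and S5 at 5.81 CPM equalled S4. It was higher in fertile fish in the quasi-likelihood test of edgeR (log2 fold change 0.75 ± 0.10, SE, Benjamini-Hochberg adjusted *p* = 0.0363), below the 2-fold limit of a call. The adjusted *p* rose above the threshold whenever any 1 of the 6 libraries was left out, with values from 0.0552 to 0.117 and log2 fold changes from 0.73 to 0.78. All fish are of 1 family, and the *p*-value sets the group difference against a spread estimated from these samples only.

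**Figure D5:**
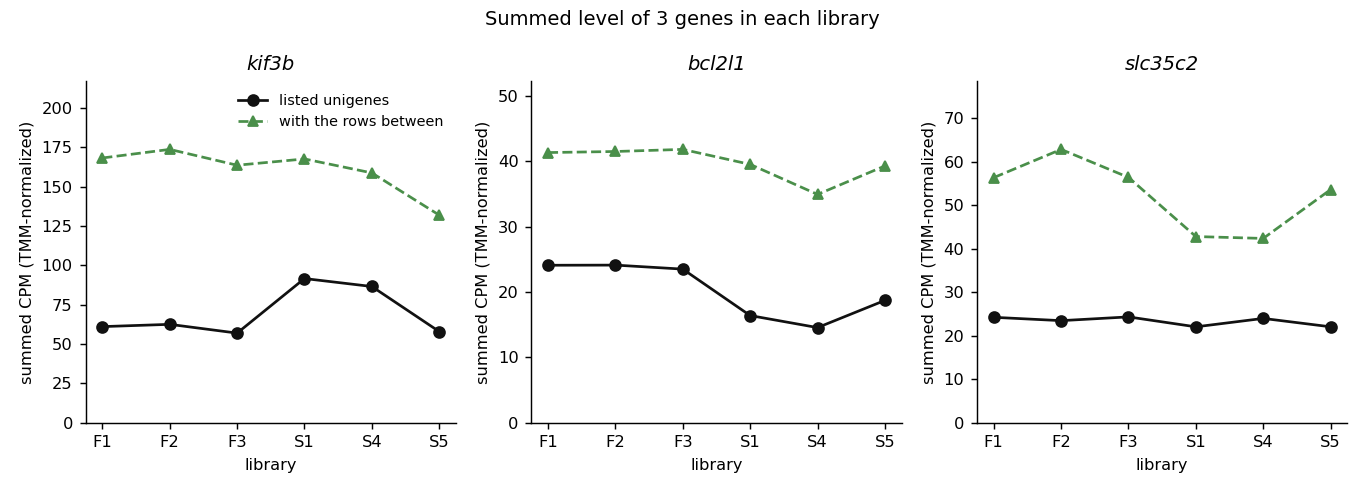
Summed CPM (TMM-normalized, vertical axis from 0) in each library for the 3 genes with unnamed rows between their unigenes. Black circles add the listed unigenes and green triangles also add the rows between. With those rows the *kif3b* sum in S1 and S4 falls within or just below the fertile values of 163.5 to 173.6 CPM. In S5 it is the lowest, at 131.9 CPM.

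Over the 7 genes, the sums of the listed unigenes had log2 fold changes from −0.39 to 0.53 with a median of −0.05, where each single unigene differed by at least 1.05 and at most 2.51. The study's list held only unigenes more than 2-fold apart, and the 7 names have listed unigenes of both directions. Large single differences that partly cancel in a sum therefore follow from this choice and are no finding. These sums of listed unigenes overlapped between the groups in 5 of the genes and did not in *bcl2l1* and *arfgef2*, while with the rows between added *slc35c2* did not overlap either. The handling of reads that match more than 1 unigene is not stated, so forms of near-identical sequence may share or divide reads, and each unigene's level and share is uncertain to that extent.

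Relatives of the 7 genes by function were taken from the same list of the study, so their directions are not independent evidence. Of the 5 listed unigenes of COX1, COX2 and COX3, the mitochondrially encoded core of cytochrome c oxidase, 1 passed the low-count filter. This was Contig13209 of COX1, at 10072, 20930 and 11357 CPM in the fertile libraries and 4994, 3490 and 4351 CPM in S1, S4 and S5 (log2 fold change 1.72, not called). It did not place S5 between the groups. The other 4 were at 0 in S1 and in the fertile libraries, save for COX2 at 0.0371 CPM in F1, and reached at most 1.96 CPM in S4 and S5, the libraries whose column names have the other ending. Of the kinesin and tubulin list, *kif16bb* had a log2 fold change of 1.32 and *tubb4b* of −1.18. Both were at most 0.712 CPM in every library, neither was called, and the median of the list was 0.07. Of the 15 unigenes in the study's Jak-STAT pathway list, a pathway of cytokine and prolactin receptors, 5 are those of *bcl2l1*. Of the 15, 12 were tested, the same *mpx* unigene was called higher and 1 of *bcl2l1* lower in fertile fish, and the median log2 fold change was 2.72. Without *bcl2l1*, 7 of 10 were tested, with 1 called higher and 0 lower, and a median of 2.97.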

How the data were processed

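RNA from gonads was sequenced in 6 libraries. The authors assembled the reads with Trinity, merged contigs with CAP3, mapped with BWA (version 0.7.8-r455, per the submitters' processing notes), and what they deposited is a raw count of reads per unigene, without normalization. As the counter, the methods name Picard while those notes list HTSeq. Whether strand was used, and how reads matching several unigenes were treated, is not stated. The authors' symbols are matches to zebrafish, mouse and human transcripts.

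The fit used edgeR 4.0.16 in R 4.3.3 (default filterByExpr, TMM, glmQLFit and glmQLFTest, Benjamini-Hochberg adjustment over 35787 unigenes). The same fit after adding the unigenes of each symbol gave the sums. Sides follow the sign of the log2 fold change. DESeq2 1.42.0 and limma 3.58.1 (voom) were alternatives, with other normalizations and filters and with each library left out. Intervals used scipy 1.17.1. The fit was tested on simulated data. No pair of libraries within a group was a duplicate.

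The members and lists were chosen with earlier results of these data known. The named genes are all 20 unigenes of the 7 symbols, their sums, component mates, the 5 symbols nearest in share profile and the relatives by function. Genes neighbouring *kif3b* and unnamed rows were added after seeing values. No sequences were used.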

Additional observations from a re-analysis of the deposited data

How the results depend on the processing

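No paired analysis was possible because the fertile and sterile columns share only 1 number. All 20 unigenes kept the direction of their log2 fold change under every alternative. Of 260 such values, 241 moved by less than the spread between replicates and 19 by more. The number of unigenes called (49) was 295 with DESeq2, 79 with no low-count filter and 24 with limma-voom, and ran from 34 to 97 when each library was left out, with 97 without F1 and 89 without S5. The members among them (6) were 18 with DESeq2, 10 with no filter and 4 with limma-voom. The median log2 fold change of the gene sums (−0.05) was −0.19 with the most counted unigene of each direction and 0.13 with the unnamed rows between added. It ran from −0.083 to 0.036 when each library was left out. Single sums changed sign as well: *bcl2l1* to −0.19 and *slc35c2* to −0.35 with the most counted pair, *kif3b* to 0.14 with the rows between, and *rhbdd1* (−0.05) to 0.054 with CPM of total counts and, over the libraries left out, from −0.12 to 0.036, the latter without F2. The median share in S5 (49.4%) ran from 40.6 to 49.95% over its alternatives. The log2 fold change of c18675_g3_i1_4546_8307 (0.75) was 0.75 with limma-voom (adjusted *p* = 0.0547) and 0.70 without S4 and S5 (adjusted *p* = 0.274), and ran from 0.73 to 0.78 with each library left out in edgeR (adjusted *p* from 0.0552 to 0.117). The rows between and the fits without S4 and S5 were chosen after seeing the data. The cause of these changes was not tested, apart from the unigenes or libraries that each alternative leaves out or adds. At 24 to 173 counts per unigene and library, *cox4i2* gave the least precise shares.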
